A study of Canis lupus familiaris with 8 samples.

Results

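The genes described here are the transcription factor gene FOXM1, its overlapping neighbour RHNO1, the B-Myb gene MYBL2, and 7 genes of the DREAM and MuvB complexes, LIN9, LIN37, LIN52, LIN54, RBL1, RBL2 and RBBP4. They were chosen by gene symbol, and all 10 were found among the 35048 rows of each deposited count table, with no symbol repeated. The cells were peripheral blood mononuclear cells (PBMCs), which are mostly lymphocytes and monocytes, taken from 5 obese and 3 normal dogs, and their RNA was counted with 3′ tag libraries that read each transcript near its poly(A) tail. Among the obese, dog 1 was a Dachshund, dog 2 a Chihuahua, dogs 3 and 4 were Labrador retrievers and dog 5 was a Welsh Corgi, and all 3 normal dogs were Beagles. No obese dog was a Beagle, so obesity and breed cannot be told apart in any comparison. No treatment, age or sex is given in the sources used here. FOXM1 is named in the title of the series, which sets obese against normal dogs.

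All of the 10 genes but RHNO1, the overlapping neighbour of FOXM1, belong to one switch of the cell cycle. MuvB is a core of LIN9, LIN37, LIN52, LIN54 and RBBP4 that sits on the promoters of cell cycle genes. In resting cells it joins the pocket proteins RBL1 or RBL2 and an E2F-DP pair to form DREAM, which represses those genes. In cycling cells the pocket proteins leave, and MuvB binds B-Myb, encoded by MYBL2, and then FOXM1 to switch on the genes of late S, G2 and M phase. Most circulating mononuclear cells are resting, and FOXM1 and MYBL2 are themselves genes of cycling cells.

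Library totals ran from 10264202 to 14910982 counts. Levels are given as CPM, counts scaled to the TMM-corrected library size, so that 3 counts correspond to 0.167 to 0.340 CPM depending on the library. The marker genes of T cells (7 of 7), B cells (7 of 7), NK cells (7 of 7) and monocytes (6 of 7) were found in the tables with counts, as the PBMC label requires. Obese dog 3 had 20.6% of its counts in a single gene, where the 4 other obese libraries had 3.11 to 14.4% and the normal ones 5.55 to 10.6%. Its 7 erythroid markers summed to 1160 CPM, where the 4 other obese libraries had 8.92 to 30.7 CPM and the normal ones 7.03 to 11.1 CPM. Its neutrophil markers summed to 6862 CPM, where the 4 other obese libraries had 190.5 to 952 CPM and the normal ones 1660 to 6736 CPM. Results that depend on this library are given with and without it.

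None of the 10 genes passed the threshold in the comparison of obese with normal dogs. The test was edgeR's quasi-likelihood test with Benjamini-Hochberg adjustment over the 20632 genes tested, at an adjusted p under 0.05, and 0.233% of all genes passed, 0.0485% as higher and 0.184% as lower in the obese dogs. At an unadjusted p under 0.05 there were 2 of the 10 genes, MYBL2 and LIN54, where 15.7% of all genes tested were. DESeq2 passed 1 of the 10 genes, MYBL2, and 5.07% of all genes with an adjusted p, 2.97% as higher and 2.11% as lower. The third tool, limma-voom with library quality weights, passed 4 of the 10 genes, FOXM1, RHNO1, MYBL2 and LIN54, and 19.1% of all genes, 9.15% as higher and 9.96% as lower. MYBL2 and LIN54 were also the 2 genes whose CPM did not overlap between the groups, which held for 10.9% of all genes tested, and for 5.16% with the obese group lower. The log2 fold change was negative for 7 of the 10 genes, and for 44.7% of all genes.

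**Figure D1:**
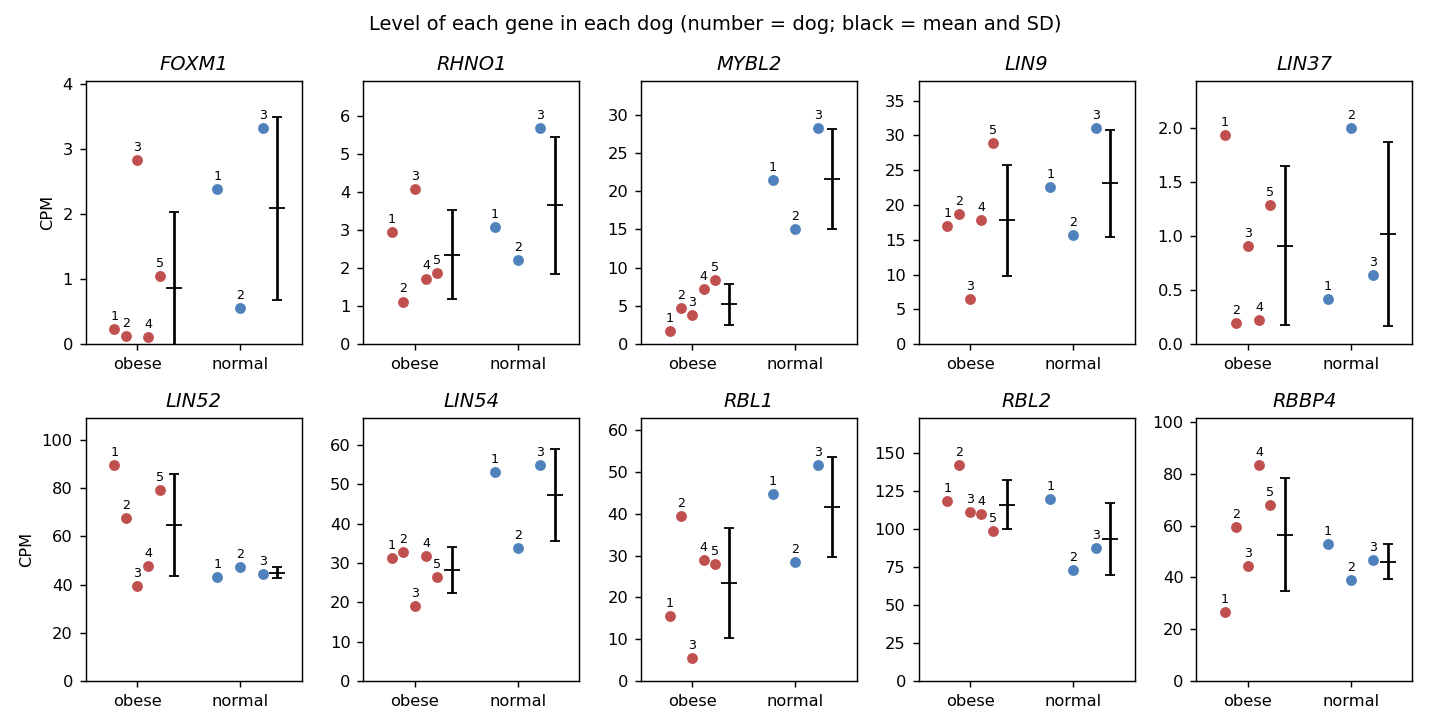
Level of each of the 10 genes in CPM (vertical axes, each from 0) in the 5 obese dogs (red, left) and the 3 normal dogs (blue, right). Points are dogs with their number, and the black bars give mean and SD, with the lower bar of FOXM1 in the obese group running below the axis. All 5 obese dogs lie below all 3 normal dogs for MYBL2 and LIN54, and the groups overlap for the other 8 genes.

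FOXM1 drives genes of G2 and M phase in dividing cells. It had few reads in every library, and the obese dogs split into 3 with almost none and 2 within the range of the normal dogs. In obese dogs 1, 2, 3, 4 and 5 it had 2, 2, 25, 2 and 18 counts, or 0.227, 0.132, 2.84, 0.112 and 1.05 CPM. In normal dogs 1, 2 and 3 it had 34, 5 and 52 counts, or 2.39, 0.553 and 3.32 CPM. From low to high the order was obese dogs 4, 2 and 1, normal dog 2, obese dog 5, normal dog 1, obese dog 3 and normal dog 3, and the 95% Poisson intervals of neighbours in this order overlapped in every case. These intervals cover counting error only. The 3 lowest obese dogs reached at most 0.819 CPM at the upper end of their intervals, while the interval of obese dog 3 ran from 1.84 to 4.19 CPM.

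The difference in FOXM1 did not stand out from the spread between dogs. It came to −1.31 on the log2 scale (95% interval −3.58 to 0.96, standard error 1.02, adjusted p = 0.568, edgeR). Its coefficient of variation between dogs was 134% in the obese and 67.4% in the normal group, and its biological coefficient of variation in the fit was 0.958, against a common value of 0.54. The 2 Labrador retrievers held the highest and the lowest value of the obese group, 25.4 times apart. Without obese dog 3, the higher of these, the log2 fold change was −2.44 (adjusted p = 0.106, edgeR), and without normal dog 3 it was −0.83 (adjusted p = 0.882). In limma-voom, which gave obese dog 3 a weight of 0.279 and normal dog 3 a weight of 3.54, it was −3.11 with an adjusted p = 0.0258.

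RHNO1 binds the DNA damage checkpoint clamp of RAD9A, RAD1 and HUS1 and helps it to activate the kinase ATR. In obese dogs 1 to 5 it had 26, 17, 36, 31 and 32 counts, or 2.95, 1.12, 4.08, 1.73 and 1.87 CPM. In the normal dogs it had 44, 20 and 89 counts, or 3.09, 2.21 and 5.68 CPM. Obese dogs 2, 4 and 5 were below all normal dogs, and obese dogs 1 and 3 lay among them. For RHNO1 the log2 fold change was −0.66 (standard error 0.540, 95% interval −1.85 to 0.54, adjusted p = 0.589, edgeR), and in limma-voom it was −1.36 with an adjusted p = 0.0408. Without obese dog 3 it was −0.99 (adjusted p = 0.229, edgeR).

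FOXM1 lies wholly within the span of RHNO1 in the reference annotation, and the sources used here do not say whether the counting used strand, so reads of this locus may have been credited to either gene. FOXM1 took 7.14%, 10.5%, 41%, 6.06% and 36% of the counts of the 2 genes in obese dogs 1 to 5. It took 43.6%, 20% and 36.9% in normal dogs 1 to 3. The low shares of obese dogs 1, 2 and 4 had exact 95% binomial intervals of 0.877 to 23.5%, 1.3 to 33.1% and 0.743 to 20.2%, and those of obese dog 3 and normal dog 1 were 28.6 to 54.3% and 32.4 to 55.3%. The share therefore varied between obese dogs beyond counting error and did not separate the groups. With the counts of both genes summed, the locus had 3.22 ± 2.21 CPM in obese dogs (SD, n = 5) against 5.75 ± 3.12 CPM in normal dogs (SD, n = 3), with a log2 fold change of −0.85 (95% interval −2.17 to 0.47, adjusted p = 0.52, edgeR).

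**Figure D2:**
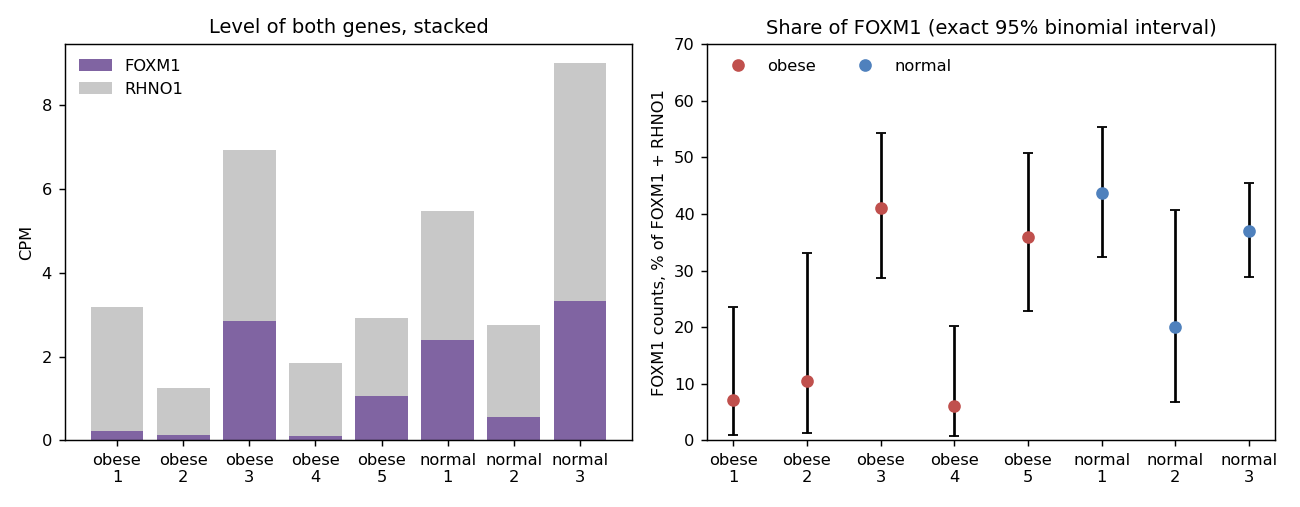
Left, FOXM1 (purple) and RHNO1 (grey) in CPM, stacked from 0, in each obese and normal dog. Right, the share of FOXM1 in the counts of both genes in percent, with exact 95% binomial intervals, which is 6.06 to 10.5% in obese dogs 1, 2 and 4 and at 20% or above in the other 5 dogs.

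MYBL2 encodes B-Myb, the factor that joins MuvB in S phase and prepares late cell cycle genes for FOXM1. In edgeR it had the largest log2 fold change of the 10 genes and the smallest p, though FOXM1 had the larger change in limma-voom and without obese dog 3. It was lower in each obese dog than in any normal dog. The obese dogs had 15, 72, 34, 130 and 144 counts, or 1.70, 4.76, 3.86, 7.25 and 8.40 CPM. The normal dogs had 306, 136 and 442 counts, or 21.5, 15.1 and 28.2 CPM. The highest obese value, in dog 5, thus stood at 8.40 CPM with a Poisson interval up to 9.89 CPM, and the lowest normal value, in dog 2, at 15.1 CPM with an interval from 12.6 CPM.

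The log2 fold change of MYBL2 was −2.04 (standard error 0.463, 95% interval −3.07 to −1.02), which is 4.12-fold lower in the obese dogs. The unadjusted p was 0.00119, and the gene ranked 226th of all genes tested, but the adjusted p was 0.106 (edgeR). Without obese dog 3 it passed, with a nearly equal log2 fold change of −1.98 (adjusted p = 0.0303, edgeR). Its unadjusted p was then 0.00152, no smaller than with all dogs. In that fit 661 genes passed as higher and 1023 as lower, of 20344 tested. It also passed with DESeq2 (−2.04, adjusted p = 0.00289) and with limma-voom (−2.08, adjusted p = 0.00405). Over all alternatives the log2 fold change of MYBL2 ran from −2.71 to −1.83 and the adjusted p from 0.00289 to 0.453.

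Markers of other cells differed alongside MYBL2 and LIN54. The 7 plasma cell markers summed to 90.2 to 201 CPM in obese dogs against 174 to 863 CPM in normal dogs, and the 7 T cell markers to 324 to 877 CPM in obese dogs against 224 to 264 CPM in normal dogs. The 6 measured platelet markers summed to 60.5 to 1184 CPM in obese dogs against 7.75 to 29.8 CPM in normal dogs, with 1 of the 6 at 0 in every library. The log2 fold change was negative for 5 of the 6 plasma cell markers tested, and positive for all 7 T cell markers and all 5 platelet markers tested. Over all genes tested it was negative for 44.7%. The 6 measured monocyte markers had no such common direction. Their sum was 425 to 1039 CPM in obese dogs against 1081 to 2331 CPM in normal dogs, but this rested on VCAN, with 378 ± 270 CPM in obese dogs against 1470 ± 653 CPM in normal dogs. The other 5 monocyte markers had positive log2 fold changes, the list's median was 0.32, and its mean in log2(CPM + 0.5) overlapped, at 5.15 to 6.31 in obese dogs against 5.12 to 6.12 in normal dogs. The 9 neutrophil markers summed to 190.5 to 952 CPM in obese dogs 1, 2, 4 and 5, below the 1660 to 6736 CPM of the normal dogs. Obese dog 3, at 6862 CPM, lay above them. The log2 fold change was negative for 5 of the 9, none passed in edgeR or DESeq2, and limma-voom called 5 lower. No T cell, plasma cell, monocyte or neutrophil marker was at 0 in all libraries. The T cell and platelet sums did not overlap between the groups and the plasma cell sums did. The plasma cell mean in log2(CPM + 0.5) did not overlap, at 1.86 to 3.1 in obese dogs against 3.86 to 5.47 in normal dogs. Of the plasma cell markers, TNFRSF17 alone passed in edgeR (adjusted p = 0.0228). It had 0.647 ± 0.395 CPM in obese dogs against 14.1 ± 4.48 CPM in normal dogs. XBP1 alone of those tested had a positive log2 fold change, of 0.21. At an unadjusted p under 0.05 in edgeR, 5 plasma cell markers were lower, and 7 T cell and 5 platelet markers higher (15.7% of all genes). DESeq2 called 4 plasma cell markers lower, and 5 T cell and 4 platelet markers higher (5.07%). With limma-voom 5 plasma cell markers were called lower, and 7 T cell markers and 1 platelet marker higher (19.1%). Each of these 2 tools called 1 monocyte marker lower. The part of these markers in the results was not tested. In these bulk samples fewer cells of a type and less RNA per cell cannot be told apart.

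Of the 5 genes of the MuvB core, LIN9, LIN37 and LIN54 had negative and LIN52 and RBBP4 positive log2 fold changes, and none passed the threshold in edgeR. LIN54, the subunit that binds DNA at the cell cycle genes homology region, had 31.3, 32.7, 18.9, 31.8 and 26.3 CPM in obese dogs 1 to 5. It had 53.0, 33.9 and 54.9 CPM in normal dogs 1 to 3. The groups did not overlap, but the gap was narrow, between 32.7 CPM in obese dog 2 and 33.9 CPM in normal dog 2, whose Poisson intervals of 29.9 to 35.7 CPM and 30.2 to 37.9 CPM overlapped. The log2 fold change of LIN54 was −0.74 (standard error 0.271, 95% interval −1.34 to −0.14, unadjusted p = 0.0199, adjusted p = 0.243, edgeR). In limma-voom it was −0.78 with an adjusted p = 0.0242, and without obese dog 3 it was −0.66 (adjusted p = 0.109, edgeR).

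LIN9, the scaffold subunit that contacts B-Myb together with LIN52, had 17.0, 18.8, 6.47, 17.9 and 28.9 CPM in obese dogs against 22.6, 15.7 and 31.0 CPM in normal dogs. The groups overlapped over most of their range, and obese dog 3 alone lay below all normal dogs. Its log2 fold change was −0.37 (95% interval −1.31 to 0.56, adjusted p = 0.707, edgeR), and −0.20 without obese dog 3.

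LIN37, which DREAM needs to repress its targets, had 17, 3, 8, 4 and 22 counts in the obese dogs and 6, 18 and 10 counts in the normal dogs. These are 0.908 ± 0.734 CPM in obese dogs against 1.02 ± 0.851 CPM in normal dogs, and the interval of its log2 fold change, −2.11 to 1.79, was the widest of the MuvB core. The difference of −0.16 (adjusted p = 0.953, edgeR) turned positive without obese dog 2, obese dog 4 or normal dog 2, and LIN37 fell below the filter on low counts without obese dog 1 or obese dog 5. No difference in LIN37 was detectable at this depth.

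LIN52 carries the site that the kinase DYRK1A phosphorylates to assemble DREAM. It had 89.6, 67.6, 39.6, 47.6 and 79.4 CPM in obese dogs 1 to 5. In normal dogs 1 to 3 it had 43.2, 47.4 and 44.5 CPM. The 3 normal dogs were nearly equal, with a coefficient of variation of 4.71%, against 32.5% in the obese dogs, and 4 of 5 obese dogs lay above all normal dogs. Obese dog 4 was the closest of these, at 47.6 CPM against 47.4 CPM in normal dog 2, and obese dog 3 lay below all normal dogs. For LIN52 the log2 fold change was 0.52 (95% interval −0.13 to 1.18, adjusted p = 0.422, edgeR), and 0.62 without obese dog 3 (adjusted p = 0.142).

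RBBP4, a histone-binding protein that MuvB shares with several chromatin complexes, had 26.5, 59.7, 44.6, 83.4 and 68.1 CPM in obese dogs against 52.8, 39.0 and 46.8 CPM in normal dogs. Obese dogs 2, 4 and 5 were above all normal dogs and obese dog 1 was below them. Its log2 fold change was 0.29 (95% interval −0.48 to 1.06, adjusted p = 0.723, edgeR).

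The 2 pocket proteins had fold changes of opposite sign. RBL1, the pocket protein whose own gene is active in cycling cells, had 15.5, 39.4, 5.56, 28.9 and 27.9 CPM in obese dogs 1 to 5. It had 44.9, 28.4 and 51.7 CPM in normal dogs 1 to 3. Obese dogs 1, 3 and 5 were below all normal dogs, and obese dogs 2 and 4 were above normal dog 2. The log2 fold change of RBL1 was −0.83 (95% interval −1.94 to 0.29, adjusted p = 0.457, edgeR), and −0.61 without obese dog 3, its lowest library.

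RBL2, the main pocket protein of DREAM in resting cells, had 118, 142, 111, 110 and 98.3 CPM in obese dogs against 119, 72.9 and 87.3 CPM in normal dogs. It varied least of the 10 genes among the obese dogs, with a coefficient of variation of 14.0%, and 1 obese dog was above all normal dogs. Its log2 fold change was 0.31 (95% interval −0.21 to 0.84, adjusted p = 0.557, edgeR).

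**Figure D3:**
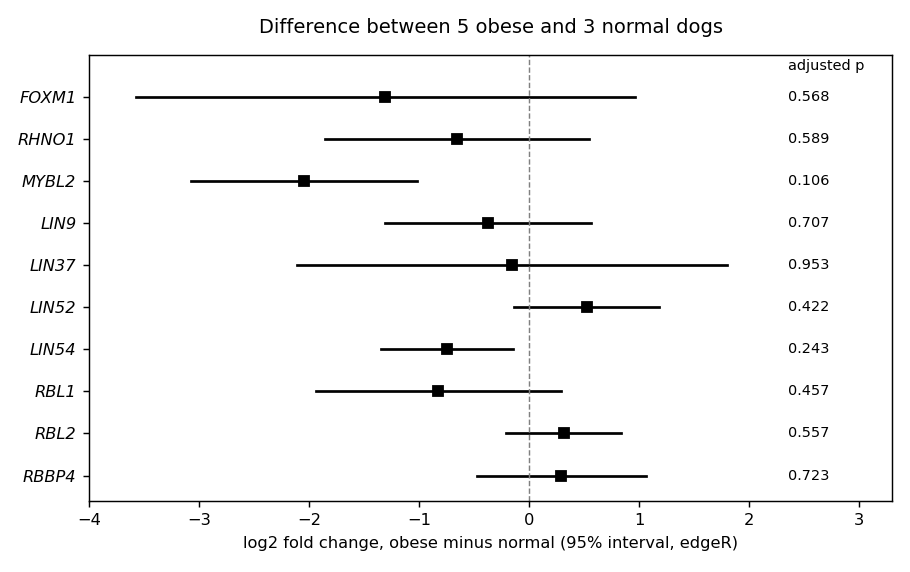
Log2 fold change of each gene, obese minus normal (squares), with its 95% interval (lines) and the adjusted p over all genes tested, from edgeR. The intervals of MYBL2 and LIN54 lie below 0, those of the other 8 genes include 0, and no adjusted p is under 0.05.

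A ratio of 2 genes within a library depends on the scaling of libraries only through the small constant added to each value. The 3 ratios were compared between the groups with an exact two-sided permutation test over all 56 splits of the dogs into 5 and 3, whose smallest possible p is 0.0179, with adjustment over the 3 ratios. Each was computed as log2 of (CPM + 0.5) of the first gene over that of the second.

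MYBL2 over RBL2 sets the activator of cycling cells against the pocket protein of resting cells. It was −5.75, −4.76, −4.68, −3.83 and −3.47 in obese dogs 1 to 5, and −2.45, −2.24 and −1.61 in normal dogs 1 to 3. All 5 obese dogs were lower than all normal dogs, with a difference of −2.40 on the log2 scale. MYBL2 alone also separated the groups, with a log2 fold change of −2.04, where that of RBL2 was 0.31 (edgeR). The ratio is therefore not separate evidence from MYBL2. The exact permutation p was 0.0179, the smallest that the design can give, and 0.0536 after adjustment, which misses the threshold. A single ratio at this smallest p cannot pass after adjustment unless other ratios are also low. Without obese dog 3 the difference was −2.35, with an exact permutation p = 0.0286, larger than with all dogs, and 0.0429 adjusted. It passed there only because RBL1 over RBL2 also had an unadjusted p = 0.0286, so the pass is not stronger evidence.

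RBL1 over RBL2 was −2.89, −1.83, −4.20, −1.91 and −1.80 in the obese and −1.40, −1.34 and −0.75 in the normal dogs. The groups did not overlap in this ratio either, although they did for each of its genes alone. The mean was −2.53 ± 1.04 in the obese and −1.17 ± 0.36 in the normal dogs (SD, n = 5 and 3), and the exact permutation p was 0.0714 (0.107 adjusted). Without obese dog 3, the lowest value, the difference was −0.94, with an exact permutation p = 0.0286, the smallest for 4 against 3 dogs, and 0.0429 adjusted.

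RHNO1 over FOXM1 was 1.31 ± 0.775 in the obese and 0.791 ± 0.532 in the normal dogs (SD, n = 5 and 3). The difference of 0.52 had an exact permutation p = 0.321, also 0.321 adjusted, and the groups overlapped.

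**Figure D4:**
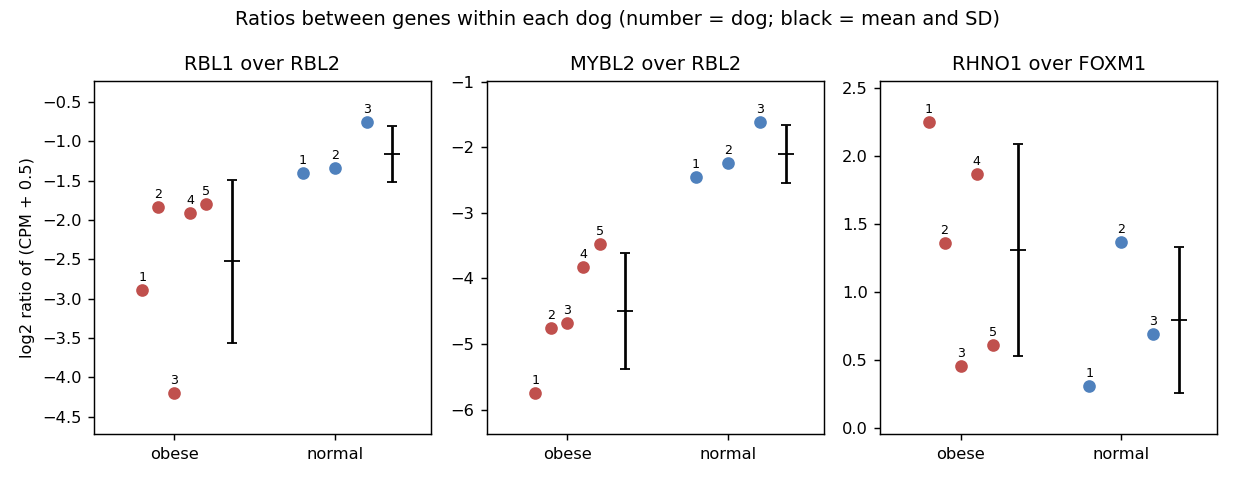
Log2 ratios within each dog for RBL1 over RBL2, MYBL2 over RBL2 and RHNO1 over FOXM1 in obese (red, left) and normal dogs (blue, right). Points are dogs with their number and black bars are mean and SD. The first and second ratios separate the groups, with all 5 obese dogs lower, and the third does not.

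The extremes of the 10 genes were spread over 6 of the 8 dogs. Normal dog 3 had the highest value of all 8 dogs in 6 of the 10 genes, FOXM1, RHNO1, MYBL2, LIN9, LIN54 and RBL1, and in 8.58% of all genes tested. Obese dog 3 had the lowest value in 4, LIN9, LIN52, LIN54 and RBL1, and in 21.5% of all genes tested, the largest such share of the 8 libraries. The same dog had the highest obese values of FOXM1 and RHNO1. Obese dog 1 had the lowest values of MYBL2 and RBBP4 and the highest of LIN52, obese dog 2 the lowest of RHNO1 and LIN37 and the highest of RBL2, obese dog 4 the lowest of FOXM1 and the highest of RBBP4, and normal dog 2 the lowest of RBL2 and the highest of LIN37.

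Of 30 genes that B-Myb-MuvB and FOXM1 switch on late in the cell cycle, all tested, 2 passed the threshold as lower in the obese dogs, none passed as higher, and 28 did not pass. The 2 genes that fell were CENPF and CENPE, a protein and a motor of the kinetochore. CENPF had 13.2 ± 3.06 CPM in obese dogs against 81.4 ± 29.5 CPM in normal dogs (SD, n = 5 and 3), and CENPE had 9.63 ± 2.16 against 47.2 ± 19.1 CPM (adjusted p = 0.0194 and 0.0341, edgeR). The log2 fold change was negative for all 30 genes (44.7% of all genes tested), and for 28 to 30 of them with 1 dog left out. In 18 of the 30 the groups did not overlap, with the obese dogs lower (5.16% of all genes). The median log2 fold change was −1.53, beside 0.09 over all genes tested. The list holds genes already known to be low in these obese dogs when it was drawn up, so its direction is not independent evidence. The number called depended on single dogs, with 16 lower without obese dog 3, 1 without obese dog 5 or normal dog 1, and 0 without obese dog 1, 2 or 4 or normal dog 3. The calls over all genes moved in the same way. Without obese dog 3, 1023 of 20344 genes were called lower. Without obese dog 5 there were 12, and without normal dog 1 there were 33. Without obese dog 1, 2 or 4 or normal dog 3 there were 2 or 3. At an unadjusted p under 0.05 there were 20 lower (6.73% of all genes), and DESeq2 called 14 lower (2.11%) and limma-voom 23 (9.96%). The marker sums given beside MYBL2 stand beside these genes too, and their part was not tested.

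Set beside these targets, FOXM1 and MYBL2 differed in obese dog 3. The mean of the 30 genes, in log2(CPM + 0.5), was 2.09, 2.41, 2.65, 2.29 and 2.51 in obese dogs 1 to 5 and 4.02, 3.43 and 4.11 in normal dogs 1 to 3. Obese dog 3 had 2.84 CPM of FOXM1, more than normal dogs 1 and 2, and a target mean of 2.65, below each normal dog. Normal dog 2 had 0.553 CPM of FOXM1, less than obese dogs 3 and 5, and a target mean of 3.43, above each obese dog. MYBL2 placed all obese dogs below all normal dogs, as the targets did. The list holds genes already known to be low in these obese dogs, so this match is not independent evidence. Among the obese dogs the target mean was highest in dogs 3 and 5, as FOXM1 was. MYBL2 was highest in obese dogs 5 and 4, and stood at 3.86 CPM in dog 3. In the normal dogs all of these had the order 3, 1, 2 from high to low. The summed level of the list, 288 to 572 CPM in obese dogs against 667 to 911 CPM in normal dogs, was highest among the obese dogs in dog 3. Beyond that its order differed from that of the mean and of FOXM1. Obese dog 1 had 430 CPM, more than the 315.5 CPM of obese dog 5, and normal dog 1 had 911 CPM against 900 CPM in normal dog 3.

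**Figure D5:**
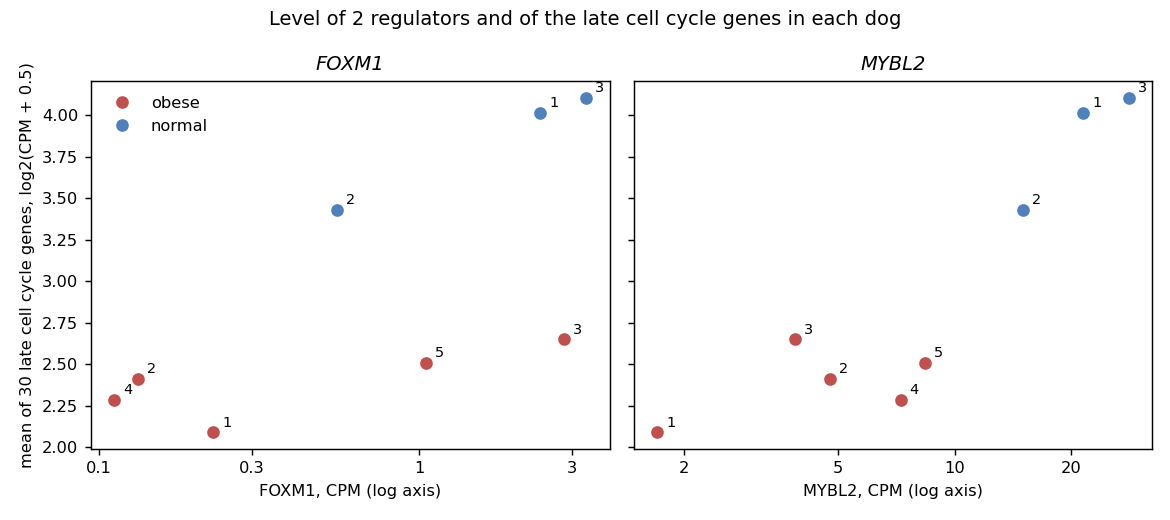
Mean level of 30 late cell cycle genes in log2(CPM + 0.5) (vertical axis) against the CPM of FOXM1 (left) and MYBL2 (right), on log axes, for obese (red) and normal dogs (blue) numbered as in the text. Obese dogs 3 and 5 reach the FOXM1 range of the normal dogs with target means of 2.65 and 2.51, and no obese dog reaches the MYBL2 range of the normal dogs.

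None of the genes that DREAM represses for the entry into S phase passed the threshold in edgeR, and 13 were lower at an unadjusted p under 0.05 (6.73% of all genes). Of 20 listed genes 18 were tested, 17 had a negative log2 fold change (44.7% of all genes), 9 had groups without overlap and a lower obese group (5.16%), and the median was −1.18. The 3 genes with the smallest p were MCM5, a subunit of the replicative helicase, the cyclin gene CCNE1 and RRM1, of ribonucleotide reductase. MCM5 had 7.0 ± 2.65 CPM in obese dogs against 27.1 ± 6.80 CPM in normal dogs (adjusted p = 0.0625, edgeR). CCNE1 had 6.23 ± 3.15 against 26.6 ± 7.48 CPM (adjusted p = 0.0747), and RRM1 had 34.2 ± 4.69 against 70.2 ± 3.48 CPM (adjusted p = 0.0768). DESeq2 called 8 of the 18 lower (2.11% of all genes), and limma-voom 13 (9.96%).

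The counts in the remaining lists are to be read against the shares over all genes, which were 15.7% at an unadjusted p under 0.05 in edgeR, 5.07% called by DESeq2 and 19.1% called by limma-voom. A negative log2 fold change was found in 44.7% of all genes. The lists also share genes, so they are not separate findings. CCNE1, E2F1, CHAF1A and CHAF1B are also among the early targets above, and PLK1, CDK1 and CCNA2 among the late ones. CDK2, FOXO3, RB1 and RBBP7 each occur in more than 1 of the remaining lists. The partners that build or dissolve DREAM, the E2F and DP subunits, the kinase DYRK1A, RB1 and the cyclins, kinases and inhibitors of G1, showed no common direction. Of 16 genes 8 had a negative and 8 a positive log2 fold change, the median was 0.03 (10 negative and a median of −0.07 with upper-quartile factors), and none passed in edgeR (6 at an unadjusted p under 0.05), while DESeq2 called 3 higher and 2 lower. CCNE1 had the smallest p. CCNE2, which overlaps INTS8 and an uncharacterised gene, had 10.2 ± 0.885 CPM in obese dogs against 21.5 ± 5.24 CPM in normal dogs (adjusted p = 0.122, edgeR). CCND1, the cyclin D1 gene, had 11, 38, 17, 128 and 83 counts in the obese and 2, 6 and 7 counts in the normal dogs (adjusted p = 0.13, edgeR).

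Among 12 regulators of FOXM1, 9 had a negative log2 fold change (44.7% of all genes) with a median of −0.64. Of these regulators, PLK1, CDK1 and CCNA2 were also counted in the late targets and E2F1 in the early ones. None passed in edgeR, 3 had an unadjusted p under 0.05, and DESeq2 called 1 lower and limma-voom 4 lower and 1 higher. PLK1, a mitotic kinase that phosphorylates FOXM1 and overlaps ERN2, had 2.51 ± 1.48 CPM in obese dogs against 8.9 ± 3.3 CPM in normal dogs (adjusted p = 0.184). CDK1, the kinase of mitotic entry, had 0.37 ± 0.43 against 2.71 ± 0.88 CPM (adjusted p = 0.201), and no reads in obese dog 1.

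In the pathway of RHNO1, the checkpoint clamp and ATR, 9 of 13 genes had a negative log2 fold change, with a median of −0.16. In edgeR none passed and 3 had an unadjusted p under 0.05 (15.7% of all genes), and DESeq2 called 1 lower (2.11%) and limma-voom 3 lower and 1 higher (19.1%). CLSPN, the adaptor that presents CHEK1 to ATR, had 5.61 ± 3.41 CPM in obese dogs against 35.5 ± 15.1 CPM in normal dogs, with −2.67 as its log2 fold change (adjusted p = 0.059, edgeR). It overlaps a pseudogene that is not in the tables. CHEK1, the effector kinase, had 2.23 ± 0.702 against 5.62 ± 1.86 CPM (adjusted p = 0.214). ETAA1, another activator of ATR, had 19.1 ± 5.53 against 11.3 ± 1.89 CPM (adjusted p = 0.307), and the uncharacterised gene that it overlaps drew 2225 counts in all, where ETAA1 drew 1762.

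RBBP4 also works in complexes that assemble, deacetylate or methylate chromatin. Of 16 partner genes there, 10 had a negative log2 fold change (44.7% of all genes), with a median of −0.29. CHAF1A and CHAF1B among them were also counted in the early targets of DREAM. None passed in edgeR or DESeq2, 4 had an unadjusted p under 0.05 in edgeR (15.7% of all genes), and limma-voom called 4 lower and 1 higher (19.1%). CHAF1A and CHAF1B, subunits of the chromatin assembly factor that acts at replication forks, had 15.4 ± 9.93 and 2.56 ± 0.898 CPM in obese dogs, against 47.9 ± 13.1 and 5.99 ± 2.53 CPM in normal dogs (adjusted p = 0.199 and 0.254). GATAD2B, a subunit of the NuRD deacetylase complex, had 381 ± 117 CPM in obese dogs against 205 ± 7.98 CPM in normal dogs (adjusted p = 0.206). Among 11 relatives of the 10 genes by sequence family, 4 had a negative log2 fold change, the median was 0.41 and no gene had groups without overlap. None passed in edgeR or DESeq2, 1 of the 11 had an unadjusted p under 0.05 in edgeR, below the share of 15.7% over all genes, and limma-voom called 3 higher and 2 lower, where it called 19.1% of all genes. The 3 with the smallest p were FOXK1, MYB and FOXO3. FOXO3, a forkhead factor that opposes FOXM1, had 210 ± 156 CPM in obese dogs against 427 ± 226 CPM in normal dogs (adjusted p = 0.36). FOXK1, another forkhead factor, had 97.5 ± 33.3 against 52.6 ± 8.49 CPM (adjusted p = 0.249), and MYB, whose span overlaps the more abundant AHI1, had 8.96 ± 2.2 against 15.5 ± 6.68 CPM (adjusted p = 0.326).

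The genes most like MYBL2 and FOXM1 across the 8 libraries were picked by Pearson's r of log2(CPM + 0.5) among 13047 named genes with a mean of at least 1 CPM, as a description. The libraries of the 2 groups are included, so a shared difference between groups raises r. For MYBL2 they were STIL (r = 0.987), PPA1 (0.977), DEPDC1 (0.976), SHROOM2 (0.970) and ABI1 (0.967). STIL, needed to duplicate centrioles, had 7.20 CPM on average in obese dogs against 21.1 CPM in normal dogs, and DEPDC1 had 0.897 against 4.52 CPM. None of the 5 passed the threshold (lowest adjusted p = 0.119, edgeR). For FOXM1, with only 2 to 52 counts a library, they included SASS6 (r = 0.949), SLC9C1 (0.943), ACADL (0.919) and NRIP3 (0.916). SASS6, a centriole protein, had 8.0 CPM in obese dogs against 12.9 CPM in normal dogs (adjusted p = 0.509).

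Besides the shared span of FOXM1 and RHNO1, several of the 10 genes overlap other annotated genes in part. RHNO1 shares 16 bases with TEX52, which drew more counts, 347 against 295. LIN52, LIN54 and RBBP4 share 4 to 155 bases with protein-coding genes that drew fewer counts than they did. LIN9 and RBL1 each overlap an uncharacterised noncoding gene with fewer counts than their own, 162 against 2258 for LIN9 and 435 against 3484 for RBL1. RBL2 and RBBP4 overlap annotated pseudogenes that are not rows of the tables, and reads that also match near-identical copies could not be traced. LIN37 overlaps no gene of the reference table.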

How the data were processed

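Polyadenylated RNA of PBMCs from 8 dogs was sequenced. Trizol extraction and a Lexogen QuantSeq library kit were used, per the labels' protocols. The authors deposited 1 table per dog of whole-number counts per gene symbol, not normalized. The tools named are Bowtie2 and bedtools, per the submitters' processing notes. Neither tool versions nor build, annotation or strand setting is given in the sources used here. Gene overlaps come from a RefSeq table of the assembly UU_Cfam_GSD_1.0, which may not be the build used and in which all 10 members were found.

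Groups follow the labels. Each library is labelled as a separate dog, and no pair agreed within sampling noise (lowest chi-square per degree of freedom 40.5). For 411 rows of a repeated symbol, the row with the highest mean bore the symbol. Counts were fitted in R 4.3.3 with edgeR 4.0.16 (filterByExpr, TMM, robust glmQLFit, glmQLFTest). Standard errors are the absolute log2 fold change over the square root of F. The fitting step was checked on simulated data. Alternatives were DESeq2 1.42.0 (size factors, test), upper-quartile factors, no filter, limma 3.58.1 voom, summed rows, leaving out each dog, a replicate block and other pseudocounts.

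The members, gene lists and tests were chosen with earlier results of these data known. Genes named from a list are those past the threshold or else the 3 with the smallest p, and some items that the rules would name are not reported here. CCND1 counts per dog are the deposited counts.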

Additional observations from a re-analysis of the deposited data

How the results depend on the processing

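Counts of genes called over the whole table depended on the test. They were 10 higher and 38 lower in edgeR, 612 and 434 in DESeq2, 1887 and 2055 in limma-voom with quality weights, and between 0 and 661 higher and 2 and 1023 lower in the edgeR fits that left out 1 dog, with the top of both ranges without obese dog 3. The other scalings, no filter and summed rows stayed within 1.5 times. Upper-quartile factors gave a median log2 fold change over all genes of −0.03, where TMM gave 0.09, and left the sign of all 10 members as it was. FOXM1 kept a negative log2 fold change in all 16 alternatives, which include its sum with RHNO1. The change ran from −3.11 in limma-voom, where FOXM1 passed, to −0.83, and from −2.44 to −0.83 with 1 dog left out. The ratio of MYBL2 to RBL2 ranged from −2.65 to −2.08 and that of RBL1 to RBL2 from −1.54 to −0.94 with 1 dog left out. Both passed without obese dog 3 (adjusted exact permutation p = 0.0429 each). Both had an unadjusted p = 0.0286 there, and each passed only because the other was equally low. For MYBL2 over RBL2 that unadjusted p was larger than the 0.0179 with all dogs. Pseudocounts of 0.1 and 2 CPM changed no call of a ratio, though the difference in RHNO1 over FOXM1 was 1.02 and 0.15 with them.

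LIN37 ranged from −0.52 to 0.71 with 1 dog left out. With the dog numbers as a replicate block, RBBP4 turned to −0.15, and 0 genes were called higher and 0 lower, with 1634 genes at an unadjusted p under 0.05. The numbers name different dogs, only 3 of them occur in both groups, and same-numbered dogs did not deviate together (correlations −0.0241, −0.231 and 0.00813). For FOXM1 and LIN37, with 2 to 52 and 3 to 22 counts a library, depth limits what can be detected. The causes of these shifts were not tested.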
